A study of Homo sapiens with 41 samples.

Results

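The amino acid transporters described here are the genes whose symbols belong to the solute carrier (SLC) families SLC1, SLC3, SLC6, SLC7, SLC36, SLC38 and SLC43. Of 21375 symbols listed in all 6 deposited tables, 59 belong to these families. In a given table a transporter was tested where its mean normalised read count over the libraries of the table was at least 10. This held for 22 of the 59 in every table, for 36 in at least 1 table, and for 23 in none. The number tested was 30 in A375 cultures, 28 in Colo800 cultures, 30 in UACC62 cultures, 28 in H3122 cultures, 30 in A375 tumours and 28 in A375R tumours. The study measured RNA by sequencing in 41 libraries of 15 groups, to follow sensitive tumour cells under inhibition of their driver oncogene, and resistant cells in tumours of differing make-up. The human melanoma lines A375, Colo800 and UACC62 were given vemurafenib, an inhibitor of BRAF. H3122, derived from a lung adenocarcinoma, was given the ALK inhibitor crizotinib. In culture, drug or vehicle was added in medium with 2% serum. A375 cells received 0.1 µM vemurafenib for 6 h or for 48 h, or vehicle (n = 3 each). A single vehicle group serves both times, and its own time is not given. Differences between 6 h and 48 h thus cannot be told apart from longer culture in this medium. Colo800 and UACC62 cells received 1 µM vemurafenib for 48 h, or vehicle (n = 2 each), and H3122 cells 0.3 µM crizotinib for 48 h, or vehicle (n = 2 each). A375 tumours, grown under the skin of mice from cells injected with matrigel, received 10 doses of vemurafenib at 75 mg/kg, or vehicle (n = 4 each). A375R tumours, from the drug-resistant line, received the same dosing, or vehicle (n = 3 each), in 2 kinds that the titles call SR and Ronly. These are read here as A375R cells mixed with drug-sensitive A375 cells (SR) and A375R cells alone (Ronly); the labels do not spell the abbreviations out. Tumour RNA was ribosome-associated RNA pulled down with beads against GFP, so it is meant to come from the cells that carry the tagged ribosomal protein, while culture RNA was whole-cell RNA.

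Cells take up amino acids through carriers of several types. The SLC7 light chains, such as SLC7A5 and SLC7A11, exchange amino acids across the membrane and reach the surface only when joined to a heavy chain, SLC3A2 for most of them. SLC1 and SLC38 carriers use the sodium gradient to bring in neutral amino acids such as glutamine, or glutamate, and some SLC36 and SLC38 carriers sit in the lysosome. The families also hold carriers of related solutes: SLC6A8 carries creatine, SLC6A6 taurine, and SLC43A3 purine nucleobases.

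Libraries held between 8063754 and 42843612 reads, and A375R tumours were the deepest. As a check of drug action, DUSP6, a phosphatase induced by MAPK signalling, had a log2 change of -1.79 ± 0.27 SE in A375 cultures at 48 h, -6.29 ± 0.09 SE in Colo800 and -4.04 ± 0.11 SE in UACC62. The change was -2.76 ± 0.09 SE in H3122 and -2.20 ± 0.08 SE in A375 tumours, and all 5 were past an adjusted p of 0.05. In A375R tumours it was -0.39 ± 0.14 SE (Ronly, adjusted p = 0.149) and 0.12 ± 0.14 SE (SR, adjusted p = 0.674). The melanocyte lineage gene SOX10 was present in the A375, Colo800 and UACC62 libraries. In A375R Ronly tumours it was at 349, 123 and 69.4 under vemurafenib and 129, 55.8 and 118 under vehicle. In SR tumours it was at 91.7, 254 and 59.5 under vemurafenib and 1021, 508 and 837 under vehicle. Vehicle A375 tumours had it at 908, 916, 574 and 741. MITF, of the same lineage, was at 270, 686 and 419 in vehicle Ronly tumours and 191, 216, 152 and 182 in vehicle A375 tumours. The summed level of 8 melanocyte markers was 9261 to 10660 in vemurafenib A375 tumours and 1201 to 1777 in vehicle A375 tumours. Summed markers of other cell types also lay apart between drug and vehicle, but several sums rest on few genes. In vehicle A375 tumours 3 of 8 melanocyte, 2 of 8 lung epithelium and 6 of 6 fibroblast markers had a mean of at least 10. In vehicle Ronly tumours 2 of 6 leukocyte markers did. SOX10 alone was at 7647, 6398, 6369 and 6686 in vemurafenib A375 tumours, most of the melanocyte sum there. In A375 tumours the 6 blood, skin and muscle markers summed to 76.9 to 199.8 under vemurafenib and 0 to 10.96 under vehicle, and the 6 fibroblast markers to 845 to 1014 under vemurafenib and 1125 to 1555 under vehicle. The 8 lung epithelium markers there summed to 4379 to 4828 under vemurafenib and 6041 to 7438 under vehicle. In Ronly tumours the fibroblast sum was 2527 to 3346 under vemurafenib and 1285 to 1540 under vehicle, and that of 6 leukocyte markers 3805 to 5979 under vemurafenib and 7565 to 9748 under vehicle. In SR tumours the fibroblast sum was 2971 to 3212 under vemurafenib and 1236 to 2080 under vehicle, and the leukocyte sum 5092 to 8283 under vemurafenib and 3370 to 4999 under vehicle. Several of these sums also differed between drug and vehicle in the cultured lines, as with lung epithelium in H3122 (72990 to 77010 under crizotinib and 116800 to 136900 under vehicle). The part of these markers in the transporter results was not tested. In bulk RNA, fewer cells of a type and less RNA per cell cannot be told apart. No label states that replicates were independent cultures or animals, and the p-values reflect only how far these libraries spread, which may be technical. Replicate spread was also measured as a chi-square per degree of freedom, lowest where little beyond read sampling separates libraries. It was 1.75 and 1.77 in Colo800 vehicle and vemurafenib libraries, 1.3 and 12.4 in those of UACC62, and 5.81 to 31.7 in A375 cultures. Adjusted p and shares of genes called are thus not comparable between lines.

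Under drug, transporters moved in either direction in every sensitive line, and the counts in each direction varied between lines. Changes are given as log2(value + 1), drug over vehicle, and a gene is called changed at an adjusted p under 0.05 (limma, Benjamini-Hochberg over all genes tested, two-sided). In A375 cultures at 6 h, 1 of 30 rose and 2 fell. Of all genes tested there, 1.07% rose and 3.33% fell (4.4% in all), and the median log2 change was 0.01 for the transporters and 0 for all genes. In A375 cultures at 48 h, 7 of 30 rose and 10 fell. Of all genes tested there, 24.3% rose and 25.6% fell (50% in all), and the median log2 change was -0.03 for the transporters and -0.003 for all genes. In Colo800 cultures, 10 of 28 rose and 12 fell. Of all genes tested there, 36% rose and 37.3% fell (73.3% in all), and the median log2 change was -0.094 for the transporters and 0 for all genes. In UACC62 cultures, 10 of 30 rose and 10 fell. Of all genes tested there, 26.9% rose and 29.6% fell (56.5% in all), and the median log2 change was 0.194 for the transporters and -0.009 for all genes. In H3122 cultures, 1 of 28 rose and 9 fell. Of all genes tested there, 22.1% rose and 24% fell (46.1% in all), and the median log2 change was -0.233 for the transporters and -0.01 for all genes. In A375 tumours, 10 of 30 rose and 15 fell. Of all genes tested there, 34.2% rose and 34% fell (68.3% in all), and the median log2 change was -0.285 for the transporters and 0.003 for all genes. In A375R Ronly tumours none of 28 was called by limma, where 0.792% of all genes were. There edgeR called 0 of them and DESeq2 3, where 0.582% and 6.15% of all genes were called. In A375R SR tumours 2 rose and 1 fell, where 1.24% of all genes rose and 2.23% fell (3.48% in all). No share of the transporters was tested against that of all genes. Among the wider gaps, 1 of 28 rose in H3122 against 22.1% of all genes, 15 of 30 fell in A375 tumours against 34%, and 3 of 28 were called in SR tumours against 3.48%. Together the transporters took 0.332 to 0.352% of reads in crizotinib H3122 cultures and 0.54 to 0.58% in vehicle H3122 cultures. In UACC62 the share was 0.445 to 0.47% under vemurafenib and 0.294 to 0.302% under vehicle, and in A375 tumours 0.0741 to 0.0922% under vemurafenib and 0.126 to 0.145% under vehicle. SLC1A4, whose values are given below, made up most of the UACC62 rise, while 10 of 30 transporters rose there and 10 fell.

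**Figure D1:**
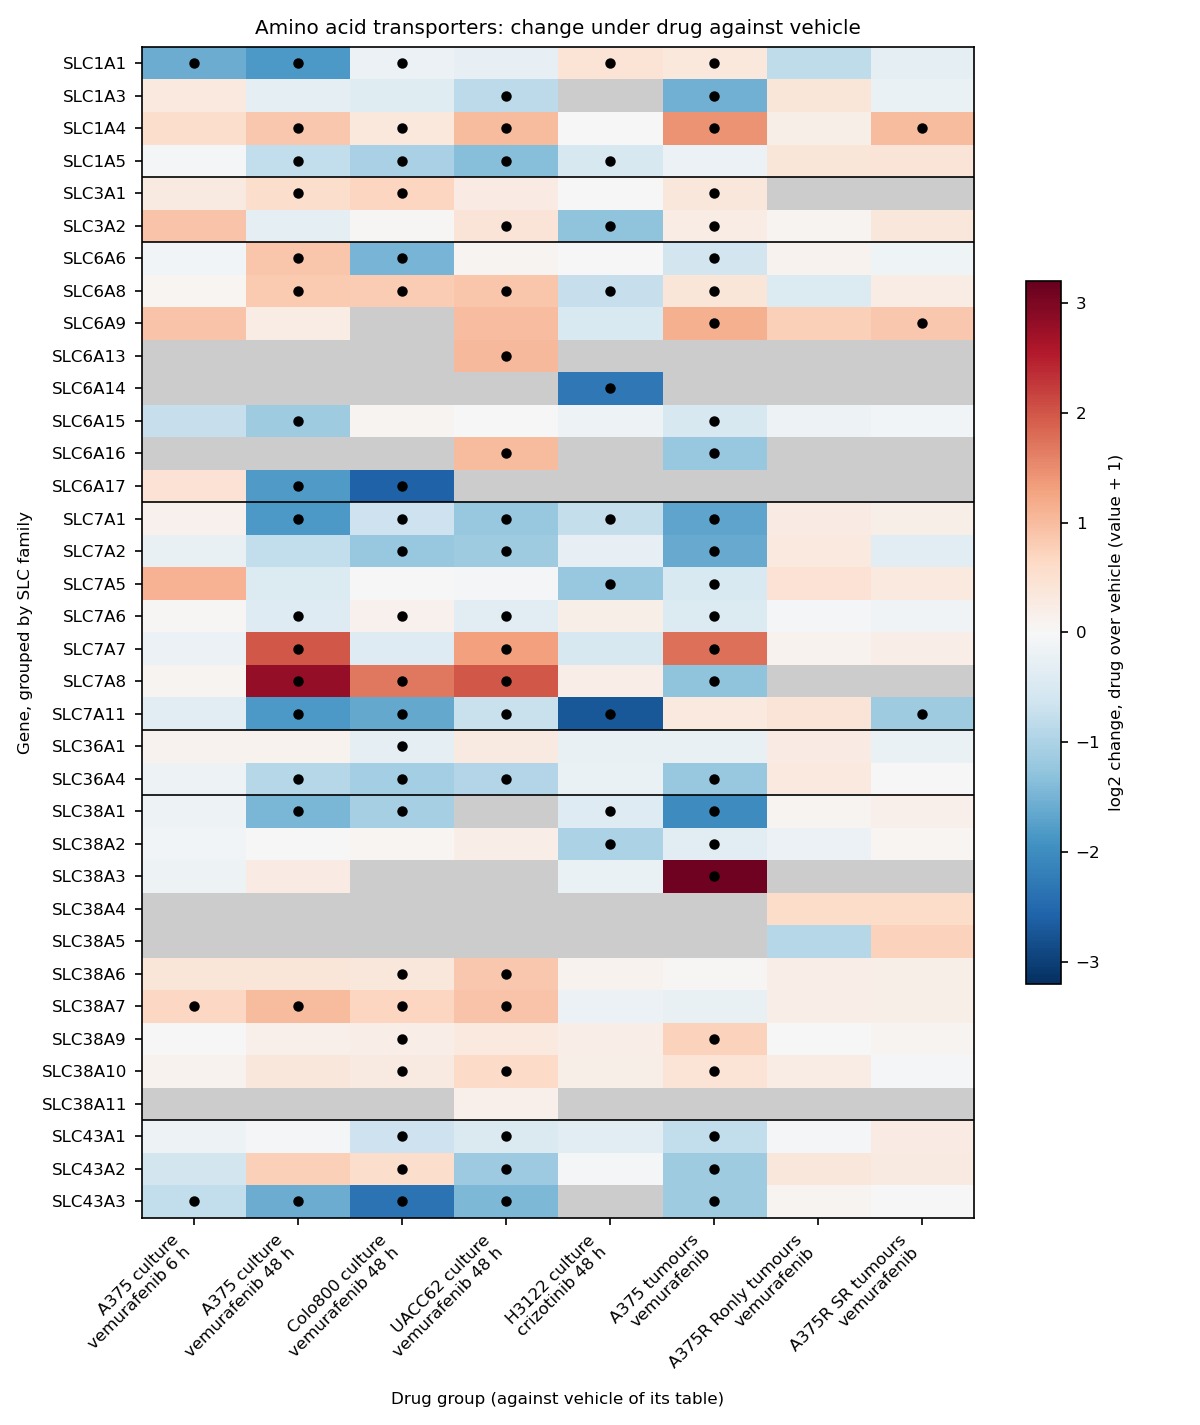
Log2 change of each tested transporter (rows, grouped by family) in each drug group against the vehicle of its table (columns); red is higher and blue lower under drug, grey is not tested, and a dot marks an adjusted p under 0.05. SLC7A11, SLC7A1 and SLC1A5 are blue with a dot in the 48 h columns of all 4 cultured lines, and the A375R Ronly column has no dot.

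SLC7A11, the light chain of the cystine and glutamate exchanger that feeds glutathione synthesis, fell in every sensitive line in culture. H3122 cultures had 742 and 892 normalised reads under crizotinib, against 6112 and 4599 under vehicle (log2 change -2.70 ± 0.13 SE, adjusted p = 2.4e-08). Colo800 cultures had 1667 and 1904 under vemurafenib and 5534 and 5524 under vehicle (log2 change -1.63 ± 0.05 SE, adjusted p = 2.4e-15). UACC62 cultures had 809.6 and 1159.9 under vemurafenib and 1551 and 1627 under vehicle (log2 change -0.71 ± 0.16 SE, adjusted p = 0.00448). In each of these lines every drug library was below every vehicle library. A375 cultures had 1213, 743 and 1060.4 under vehicle, 490.3, 463 and 1967 at 6 h and 279.5, 183 and 414 at 48 h of vemurafenib. The 48 h libraries were below all vehicle libraries (log2 change -1.83 ± 0.49 SE, adjusted p = 0.0102), while at 6 h replicate 3 was above and the other libraries were below them (log2 change -0.36 ± 0.49 SE, adjusted p = 0.774). A375 tumours had 144, 220.3, 228 and 203 under vemurafenib and 212, 161, 123 and 144 under vehicle, which overlapped (log2 change 0.32 ± 0.17 SE, adjusted p = 0.0975). That value passed the threshold without vemurafenib replicate 1 (0.46, adjusted p = 0.0141) or without vehicle replicate 1 (0.46, adjusted p = 0.0183), and with quantile normalisation (0.39, adjusted p = 0.0454). Over the 7 drug comparisons that share no control, the transporters whose log2 changes lay nearest to those of SLC7A11 among the 21 others tested throughout were SLC1A5 (mean absolute difference 0.94), SLC7A1 (0.99) and SLC36A4 (1).

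SLC7A5, the LAT1 light chain that exchanges large neutral amino acids such as leucine, and its heavy chain SLC3A2 fell together in H3122. SLC7A5 had 10248 and 10708 under crizotinib and 24506 and 23961 under vehicle (log2 change -1.21 ± 0.09 SE, adjusted p = 6.3e-07). SLC3A2 had 4188 and 3999 under crizotinib and 9418 and 10428 under vehicle (log2 change -1.28 ± 0.09 SE, adjusted p = 3.9e-07). For either gene the groups were far apart relative to the spread within them. In Colo800 SLC7A5 had 20345 and 19907 under vemurafenib and 19951 and 20230.3 under vehicle (log2 change 0.00 ± 0.04 SE, adjusted p = 0.959). SLC3A2 there had 9900.1 and 10028 under vemurafenib and 9522 and 9812 under vehicle (log2 change 0.04 ± 0.04 SE, adjusted p = 0.323). In UACC62 SLC7A5 had 1638 and 1697 under vemurafenib and 1719 and 1726 under vehicle (log2 change -0.05 ± 0.09 SE, adjusted p = 0.685). SLC3A2 rose there, with 2185 and 1909 under vemurafenib and 1496 and 1559 under vehicle (log2 change 0.42 ± 0.10 SE, adjusted p = 0.00752). The call was lost without vehicle replicate 1 (0.39) or 2 (0.45), in fits that leave 1 vehicle library and carry little weight. The SLC7A5 groups thus overlapped in Colo800 and lay close together in UACC62. With quantile normalisation SLC7A5 was called in Colo800 (0.29, adjusted p = 2.5e-05), as was SLC3A2 (0.26, adjusted p = 5.2e-05). In A375 cultures SLC7A5 had 6491, 3334 and 5415 under vehicle, 6218, 8632 and 21782 at 6 h and 2707, 3552 and 4942 at 48 h. SLC3A2 had 3951, 2064 and 3314 under vehicle, 3864, 4697 and 9849 at 6 h and 1805, 2619 and 2919 at 48 h. The 6 h library of replicate 3 was the highest of the 9 for either gene. Against vehicle neither was called at 6 h. The log2 change was 1.11 ± 0.41 SE for SLC7A5 (adjusted p = 0.19) and 0.91 ± 0.34 SE for SLC3A2 (adjusted p = 0.191). Replicate numbers pair these cultures, and with that number as a block SLC7A5 passed (adjusted p = 0.039). Without 6 h replicate 3 the change fell to 0.58 for SLC7A5 (adjusted p = 0.409) and to 0.505 for SLC3A2 (adjusted p = 0.424). At 48 h against vehicle the log2 change was -0.43 ± 0.41 SE for SLC7A5 (adjusted p = 0.405) and for SLC3A2 -0.32 ± 0.34 SE (adjusted p = 0.452). In A375 tumours SLC7A5 fell, with 508, 586, 475 and 587 under vemurafenib and 943, 729.7, 635 and 758 under vehicle (log2 change -0.50 ± 0.11 SE, adjusted p = 0.000727). SLC3A2 rose slightly, with 552, 579.7, 629 and 537 under vemurafenib and 476, 467, 458 and 546 under vehicle (log2 change 0.24 ± 0.09 SE, adjusted p = 0.0205). Its groups overlapped, and the call was lost without vehicle replicate 2 or 3 or vemurafenib replicate 3 (adjusted p = 0.0526, 0.0555 and 0.0811). Pseudogene copies of SLC7A5 (SLC7A5P1 and SLC7A5P2) are listed in the files, so reads shared with them make its level uncertain.

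**Figure D2:**
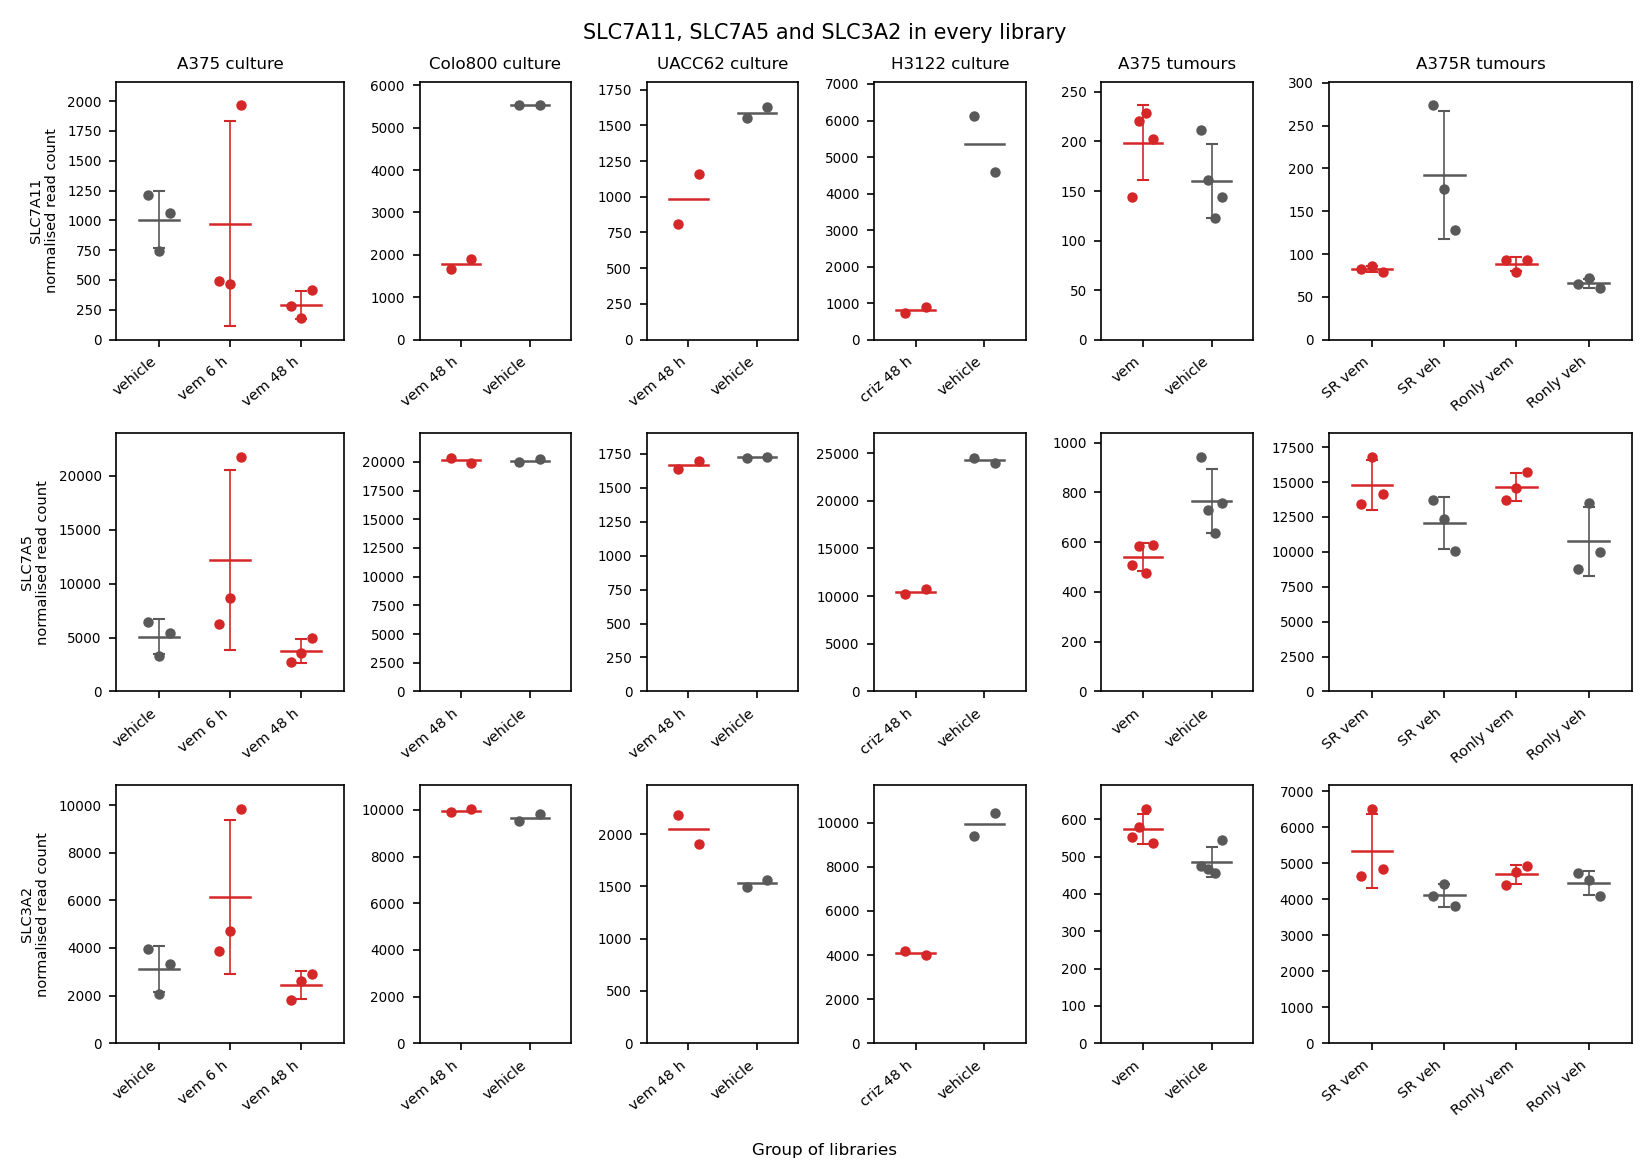
Normalised read counts of SLC7A11, SLC7A5 and SLC3A2 (rows) in every library (points) of each table (columns), drug in red and vehicle in grey; lines are means, and error bars are SD where a group has 3 or more libraries. Each panel has its own linear axis from 0. The drop of all 3 genes in H3122 and the high 6 h library of replicate 3 in A375 cultures stand out.

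Of the 9 transporters called lower in H3122, 8 had at least 1 start window. In 1 window each, 4 of these (SLC1A5, SLC7A1, SLC3A2 and SLC38A1) hold the letters TGATGNAA (N is any base). This is the motif of the C/EBP-ATF response element through which the factor ATF4 acts on amino acid response genes. SLC7A5, SLC38A2, SLC6A8 and SLC6A14 do not hold it. The start windows were those of RefSeq on GRCh38.p14, 250 bases before to 50 after each start, available for 29 of the 36 transporters tested in at least 1 table, in 50 windows; SLC7A11 had none. Searched on either strand, the motif was present in 6 windows of 6 transporters, and in 3.62% of all 35116 windows of the same length. That share is per window, and no share per gene is given. SLC1A5 and SLC1A3 hold it 97 and 220 bases before the start, and SLC7A1 and SLC3A2 after it, 8 and 38 bases on; in SLC38A1 and SLC1A4 it spans the start. The motif is in 1 of 3 windows for SLC1A5, SLC1A3 and SLC3A2, in 1 of 2 for SLC38A1 and SLC1A4, and in the single window of SLC7A1. A match is a description of the letters and not of binding. The sites are printed 5′ to 3′ on the strand of the gene with the motif in capitals; in SLC1A4 and SLC3A2 it reads on the opposite strand.
SLC1A5 site, chr19:46784893-46784922, - strand: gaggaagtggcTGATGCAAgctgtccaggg
SLC7A1 site, chr13:29595663-29595692, - strand: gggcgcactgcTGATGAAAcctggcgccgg
SLC3A2 site, chr11:62881725-62881748, + strand: tgcaggactccTTACATCAgctcc
SLC38A1 site, chr12:46266502-46266531, - strand: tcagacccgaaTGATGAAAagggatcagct
SLC1A4 site, chr2:64989381-64989410, + strand: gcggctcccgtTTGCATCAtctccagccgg
SLC1A3 site, chr5:36596357-36596386, + strand: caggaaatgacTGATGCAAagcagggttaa

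To show a match in its surroundings, the 250 bases before that start are printed for SLC1A5 with the TGATGNAA match in capitals, and for SLC7A5, which fell in H3122 without this motif in its window, with its CACGTG, the E-box bound by factors such as MYC, in capitals. CACGTG was present in 7.26% of all windows and in 9 of the 50 transporter windows.
SLC1A5, chr19:46784815-46785064, - strand: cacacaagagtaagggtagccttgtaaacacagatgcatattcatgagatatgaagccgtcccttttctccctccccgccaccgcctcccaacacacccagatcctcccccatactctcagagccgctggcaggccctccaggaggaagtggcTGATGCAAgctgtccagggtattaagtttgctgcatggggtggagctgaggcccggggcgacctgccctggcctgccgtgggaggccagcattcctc
SLC7A5, chr16:87869508-87869757, - strand: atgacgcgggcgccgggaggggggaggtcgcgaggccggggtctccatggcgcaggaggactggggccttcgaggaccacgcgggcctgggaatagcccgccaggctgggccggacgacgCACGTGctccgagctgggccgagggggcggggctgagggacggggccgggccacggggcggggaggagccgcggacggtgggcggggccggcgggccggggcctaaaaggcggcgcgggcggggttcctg

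Among the 26 transporters tested in A375, Colo800 and UACC62 cultures, 5 fell at 48 h in all 3 lines: SLC1A5, SLC7A1, SLC7A11, SLC36A4 and SLC43A3. Of all 12386 genes tested in these lines, 15.7% fell in all 3. SLC1A5, SLC7A1 and SLC7A11 also fell in H3122, and SLC7A1, SLC36A4 and SLC43A3 also in A375 tumours. SLC7A1, the main carrier of arginine and lysine, had 2013, 1554 and 1616 under vehicle, 1813, 1276 and 2843 at 6 h and 438, 429.6 and 581 at 48 h in A375 cultures. It was not called at 6 h (log2 change 0.13 ± 0.25 SE, adjusted p = 0.858; -0.17 without 6 h replicate 3) and fell at 48 h (log2 change -1.84 ± 0.25 SE, adjusted p = 0.000169). In UACC62 it had 227 and 312 under vemurafenib and 636 and 609 under vehicle (log2 change -1.22 ± 0.16 SE, adjusted p = 0.000209). In Colo800 it had 4210.4 and 4258 under vemurafenib and 6751 and 6659 under vehicle (log2 change -0.66 ± 0.04 SE, adjusted p = 2.2e-11). In H3122 it had 2481 and 2783 under crizotinib and 4707 and 4296 under vehicle (log2 change -0.78 ± 0.09 SE, adjusted p = 3.3e-05). Its A375 tumour values were 215, 306, 243 and 259.9 under vemurafenib and 837, 827, 839 and 780.2 under vehicle (log2 change -1.69 ± 0.10 SE, adjusted p = 2.3e-10). In each of these 5 settings every drug library, in A375 cultures every 48 h library, lay below every vehicle library.

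SLC1A5, the ASCT2 exchanger of glutamine and other small neutral amino acids, had 1183 and 1176 under vemurafenib and 3062 and 3015 under vehicle (log2 change -1.36 ± 0.09 SE, adjusted p = 4.0e-06) in UACC62. In Colo800 it had 1743 and 1873 under vemurafenib and 3622 and 3793 under vehicle (log2 change -1.04 ± 0.05 SE, adjusted p = 3.8e-13). In H3122 it had 5646 and 5353 under crizotinib and 7529 and 8109.7 under vehicle (log2 change -0.51 ± 0.08 SE, adjusted p = 0.000483). A375 cultures had 2646, 2043 and 2408 under vehicle, 1669, 1718 and 4068 at 6 h and 1179, 1400.3 and 1526 at 48 h. The 48 h groups did not overlap with vehicle (log2 change -0.79 ± 0.29 SE, adjusted p = 0.0411), yet the call was lost without any 1 of the 6 libraries, with adjusted p from 0.0555 to 0.114 and changes from -0.89 to -0.69, with quantile normalisation (adjusted p = 0.0666) and by edgeR (adjusted p = 0.0531). In A375 tumours it had 1023, 1286, 1312 and 1220.3 under vemurafenib and 1445, 1408, 1211 and 1435 under vehicle (log2 change -0.19 ± 0.09 SE, adjusted p = 0.0723), and without vehicle replicate 3 it was called (-0.25, adjusted p = 0.0243). SLC43A3 had the lowest adjusted p of the transporters that fell in A375 cultures at 48 h and in Colo800. In Colo800 it had 517 and 505 under vemurafenib and 2677 and 2598 under vehicle (log2 change -2.36 ± 0.05 SE, adjusted p = 7.0e-18). In UACC62 it had 359 and 345 under vemurafenib and 1009 and 915 under vehicle (log2 change -1.45 ± 0.11 SE, adjusted p = 9.4e-06). In A375 cultures it had 2769, 2729 and 2899.9 under vehicle, 1560.5, 1563 and 1747 at 6 h and 684, 1121 and 1038 at 48 h (log2 change -1.59 ± 0.17 SE, adjusted p = 3.2e-05). In A375 tumours it had 683, 838, 779 and 731 under vemurafenib and 1677, 1546, 1604 and 1869 under vehicle (log2 change -1.14 ± 0.08 SE, adjusted p = 3.4e-09). H3122 libraries listed it at 0 or at 1 read. SLC36A4, a relative of the lysosomal proton-coupled carrier SLC36A1, fell with log2 changes of -0.91 ± 0.26 SE in A375 at 48 h, -1.08 ± 0.16 SE in Colo800, -0.94 ± 0.16 SE in UACC62 and -1.20 ± 0.11 SE in A375 tumours. Its A375 culture call was lost without 48 h replicate 2 (-0.76, adjusted p = 0.0526).

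**Figure D3:**
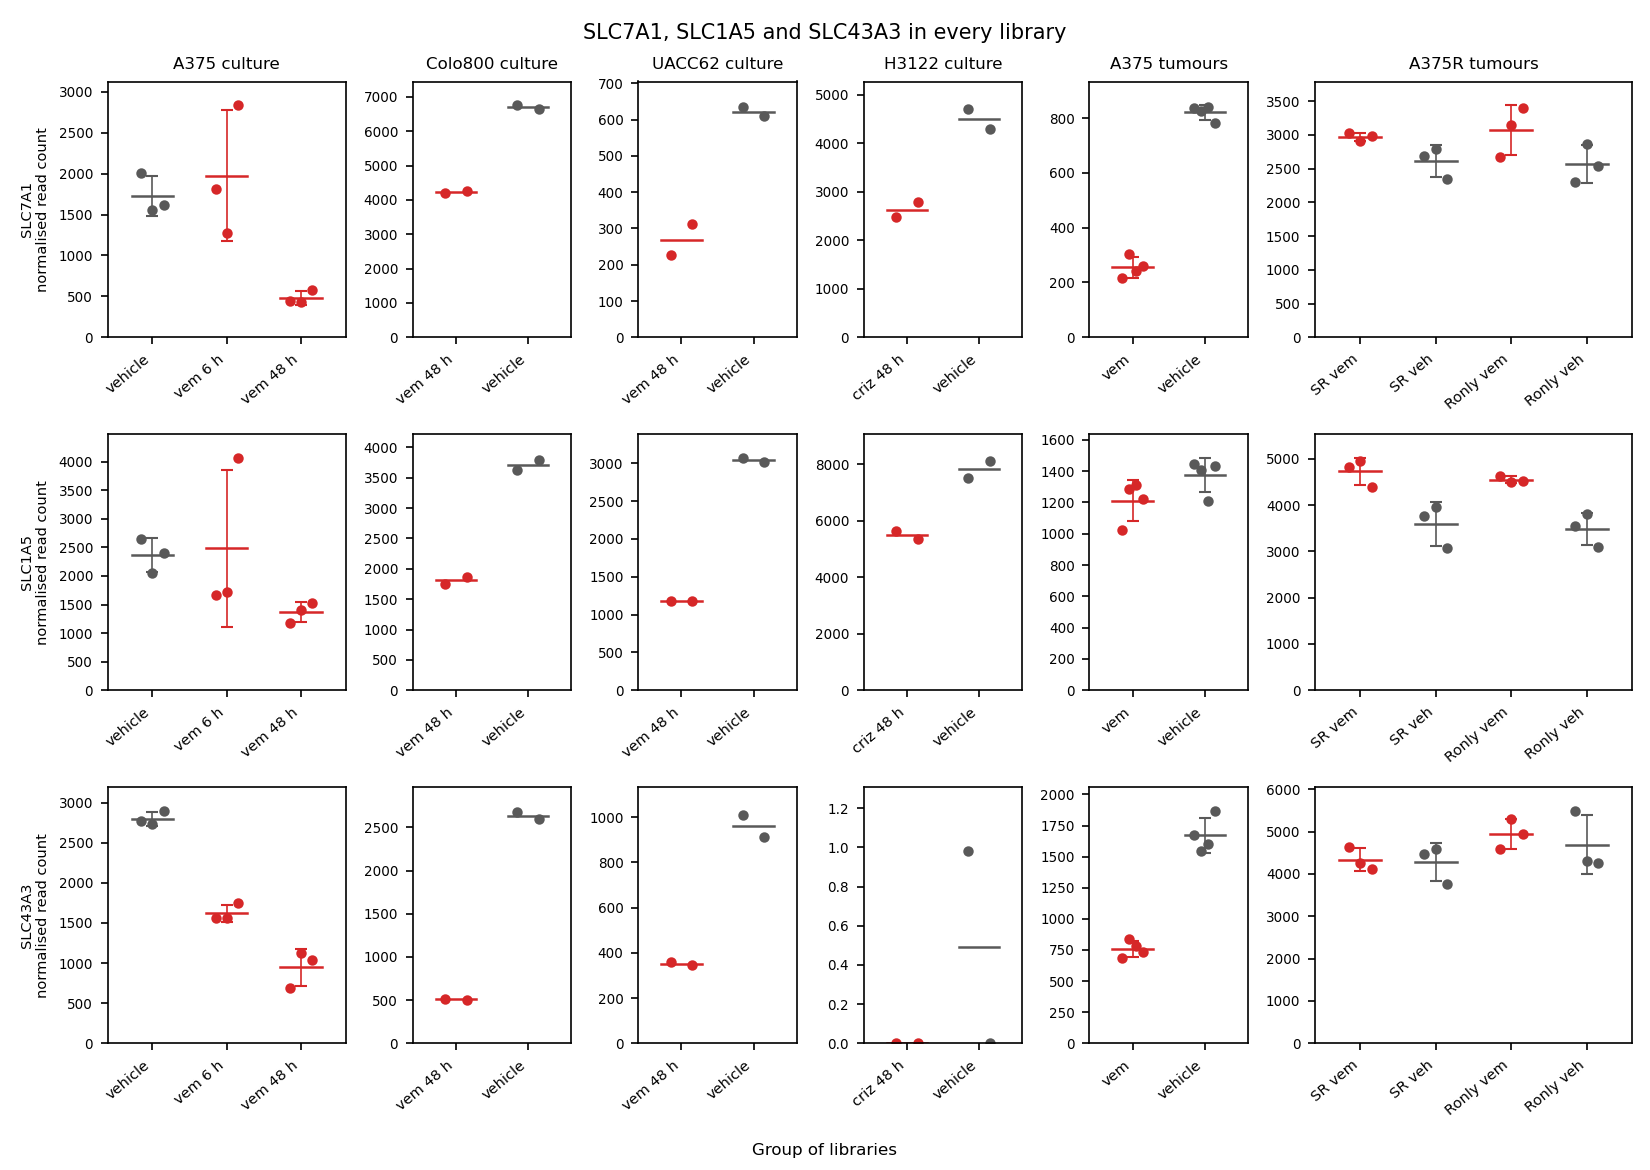
Normalised read counts of SLC7A1, SLC1A5 and SLC43A3 (rows) in every library (points) of each table (columns), drug in red and vehicle in grey, with means as lines and SD bars where a group has 3 or more libraries; each panel has its own linear axis. The drug points lie below the vehicle points in the 48 h cultures that express each gene, and limma called none of these genes in an A375R drug group, where DESeq2 called SLC1A5 in both.

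The sodium-coupled neutral carriers of the SLC38 family did not move together. SLC38A2, the carrier induced when amino acids run short, had 5139 and 5674 under crizotinib and 11665 and 10325 under vehicle (log2 change -1.02 ± 0.09 SE, adjusted p = 4.7e-06) in H3122. In Colo800 it had 4637 and 4782 under vemurafenib and 4457 and 4542 under vehicle (log2 change 0.07 ± 0.04 SE, adjusted p = 0.146), and with quantile normalisation it was called (0.25, adjusted p = 0.000121). In UACC62 it had 2188 and 2659.5 under vemurafenib and 1996 and 2167 under vehicle (log2 change 0.21 ± 0.11 SE, adjusted p = 0.144). With quantile normalisation it was called in UACC62 (0.34, adjusted p = 0.0297). Without vemurafenib replicate 1 the log2 change was 0.35 and passed the threshold, in a fit that used the spread common to genes of like level and not the gene's own; no p is given for it. In A375 cultures it had 6345, 4519.6 and 4441 under vehicle, 6462, 4024 and 3998 at 6 h and 5673, 4588 and 4733 at 48 h (log2 change -0.02 ± 0.20 SE, adjusted p = 0.954). In A375 tumours it fell, with 2760.4, 3147, 3333 and 3721 under vemurafenib and 4793, 3592, 3358 and 4671 under vehicle (log2 change -0.33 ± 0.11 SE, adjusted p = 0.0165), and the groups overlapped. The call was lost without vehicle replicate 1 or 4 or vemurafenib replicate 1 (adjusted p = 0.0692, 0.0643 and 0.0578). SLC38A1 is its close relative. A375 cultures had 2426, 2454 and 2627 under vehicle, 1923, 1664 and 3452 at 6 h and 779, 934 and 1040.2 at 48 h (log2 change -1.46 ± 0.23 SE, adjusted p = 0.000436). A375 tumours had 252, 428, 305 and 355 under vemurafenib and 1414, 1251, 1313 and 1358 under vehicle (log2 change -2.02 ± 0.12 SE, adjusted p = 3.4e-10). The SLC38A1 change was -1.05 ± 0.07 SE in Colo800 and -0.41 ± 0.11 SE in H3122. The H3122 call was lost with no filter on low values (adjusted p = 0.0894) and with quantile normalisation (-0.27, adjusted p = 0.0884). It was also lost without crizotinib replicate 1 (-0.31), in a fit that leaves 1 crizotinib library. UACC62 libraries held at most 2.06 normalised reads of SLC38A1.

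Of the same 26 transporters, 4 rose at 48 h in all 3 melanoma lines: SLC7A8, SLC38A7, SLC6A8 and SLC1A4. A call higher in each of the 3 lines was made for 11.6% of all genes tested in them. None of the 4 transporters was called higher in H3122, where the log2 change was -0.19 ± 0.15 SE for SLC38A7 and 0.00 ± 0.10 SE for SLC1A4. SLC7A8, the LAT2 light chain, exchanges neutral amino acids as SLC7A5 does. In Colo800 it had 853 and 782 under vemurafenib and 258 and 244 under vehicle (log2 change 1.70 ± 0.07 SE, adjusted p = 2.7e-13). In UACC62 it had 424 and 487 under vemurafenib and 108 and 119 under vehicle (log2 change 2.00 ± 0.14 SE, adjusted p = 4.8e-06). A375 cultures had 11.5, 55.3 and 80.9 under vehicle, 8.84, 65.9 and 103 at 6 h and 95.1, 447 and 467 at 48 h. Replicate 1 was the lowest library of each group, and the change at 48 h was 2.81 ± 0.95 SE (adjusted p = 0.0295). That call was lost without vehicle replicate 1 (2.00, adjusted p = 0.109) or without 48 h replicate 2 or 3 (adjusted p = 0.0941 and 0.0979). With the replicate number as a block it was kept, and each 48 h library was above the vehicle library of its number. The numbers did not pair vehicle and 48 h libraries in every replicate. H3122 had 132 and 142 under crizotinib and 110.2 and 125 under vehicle (log2 change 0.22 ± 0.15 SE, adjusted p = 0.247). SLC38A7, a lysosomal carrier that exports glutamine, had 149, 180.0 and 195 under vehicle, 251, 270.2 and 306 at 6 h and 330.0, 339.7 and 392 at 48 h in A375 cultures (log2 change 1.02 ± 0.15 SE, adjusted p = 0.000312). In Colo800 it had 588 and 570.4 under vemurafenib and 369 and 345 under vehicle (log2 change 0.70 ± 0.07 SE, adjusted p = 6.8e-08), and in UACC62 its change was 0.91 ± 0.14 SE.

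SLC6A8, the creatine transporter, had 7469 and 7334 under vemurafenib and 4267 and 4157 under vehicle (log2 change 0.81 ± 0.04 SE, adjusted p = 1.3e-12) in Colo800. In UACC62 it had 5603 and 5182 under vemurafenib and 2876 and 2951 under vehicle (log2 change 0.89 ± 0.09 SE, adjusted p = 5.1e-05). In A375 cultures it had 1549, 2044 and 2149 under vehicle, 1659.7, 1994 and 2304 at 6 h and 2729, 3896 and 3690.5 at 48 h (log2 change 0.84 ± 0.18 SE, adjusted p = 0.0028). In H3122 it fell instead (log2 change -0.74 ± 0.13 SE, adjusted p = 0.000842). Its pseudogene copy SLC6A10P had 146, 124 and 141 under vehicle and 270.4, 314 and 309 at 48 h in A375 cultures, so reads may be split between the copies. SLC1A4, the ASCT1 exchanger of alanine, serine and cysteine, had 29351 and 31017 under vemurafenib and 14794 and 15075 under vehicle (log2 change 1.01 ± 0.08 SE, adjusted p = 1.6e-05) in UACC62. Its change was 0.34 ± 0.04 SE in Colo800 (adjusted p = 2.7e-07) and 0.86 ± 0.32 SE in A375 cultures at 48 h (adjusted p = 0.0444). The A375 call was lost without any 1 of the 6 libraries, with adjusted p from 0.0512 to 0.151 and changes from 0.64 to 0.97. SLC7A7, a light chain that exchanges cationic for neutral amino acids, rose in A375 and UACC62. A375 cultures had 13.6, 11.9 and 15.1 under vehicle, 11.8, 10.98 and 12.6 at 6 h and 62.03, 51.6 and 57.4 at 48 h (log2 change 2.00 ± 0.25 SE, adjusted p = 0.000102), and in UACC62 its change was 1.32 ± 0.26 SE (adjusted p = 0.00269). SLC6A6, the taurine transporter, was called in opposite directions in A375 and Colo800. It rose in A375 cultures, with 1533, 1446 and 1131 under vehicle, 1537, 1081 and 1282 at 6 h and 3146, 2052 and 2461 at 48 h (log2 change 0.89 ± 0.19 SE, adjusted p = 0.0025), and fell in Colo800, with 788 and 894 under vemurafenib and 2494 and 2244 under vehicle (log2 change -1.49 ± 0.06 SE, adjusted p = 1.1e-13). No test set the lines against each other, since their tables were normalised separately.

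**Figure D4:**
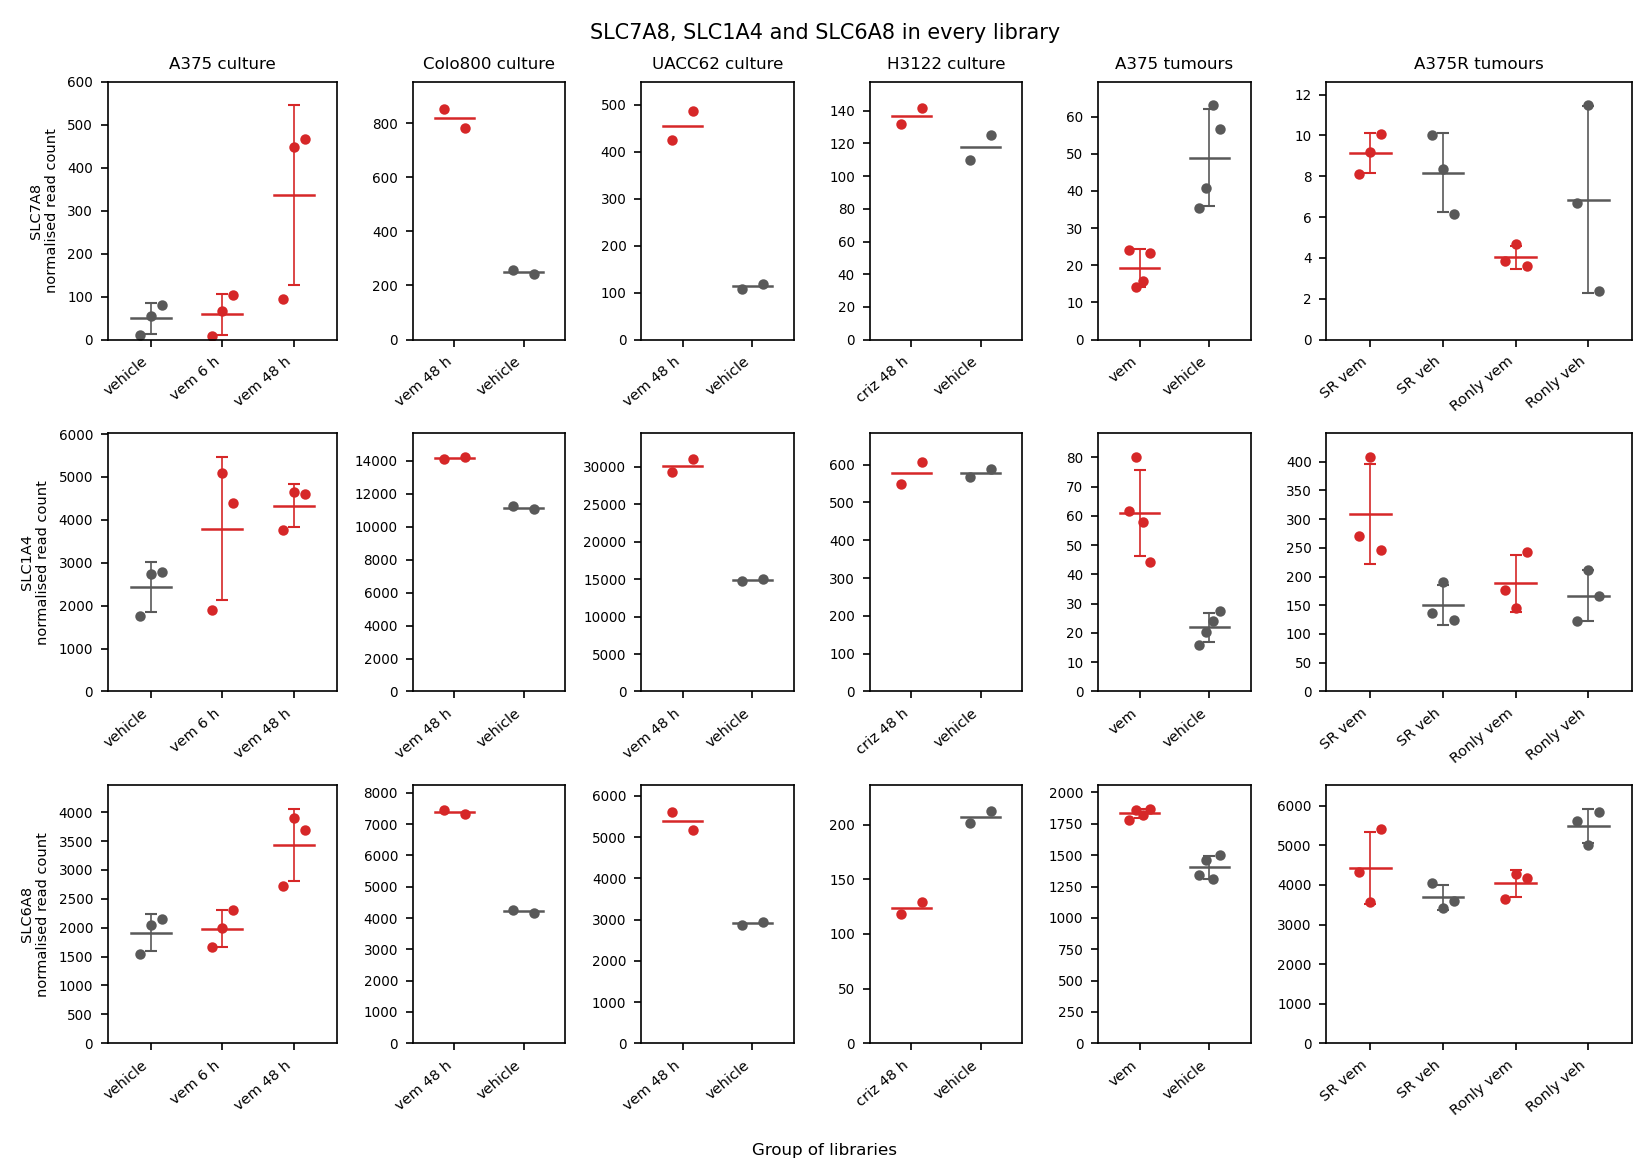
Normalised read counts of SLC7A8, SLC1A4 and SLC6A8 (rows) in every library (points) of each table (columns), drug in red and vehicle in grey, with means as lines and SD bars where a group has 3 or more libraries; each panel has its own linear axis. The drug points lie above the vehicle points in Colo800 and UACC62, and SLC7A8 is lower under vemurafenib in A375 tumours.

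The A375 cultures were sampled at 6 h and at 48 h of vemurafenib. At 6 h all 9 MAPK output genes listed had fallen, and 3 of 30 transporters were called, where 4.4% of all genes were. A transporter not called at 6 h may still have changed. SLC1A1, the EAAT3 carrier of glutamate and cysteine, had 414, 268 and 193 at 6 h against 869, 1008 and 680.3 under vehicle (log2 change -1.60 ± 0.25 SE, adjusted p = 0.00457), and at 48 h it had 209, 249 and 249.6 (log2 change -1.83 ± 0.25 SE, adjusted p = 0.000169). Its difference between 48 h and 6 h was -0.24 ± 0.25 SE (adjusted p = 0.476). SLC43A3 had fallen at 6 h (log2 change -0.79 ± 0.17 SE, adjusted p = 0.0226) and SLC38A7 had risen (log2 change 0.66 ± 0.15 SE, adjusted p = 0.0355). The SLC38A7 call was lost without any vehicle library or 6 h replicate 2 or 3 (adjusted p 0.0505 to 0.123) or with the 2 groups alone (adjusted p = 0.0855), and the SLC43A3 call without any vehicle library or 6 h replicate 1 or 2 (adjusted p 0.0511 to 0.0961) or with quantile normalisation (-0.66, adjusted p = 0.05). A fit blocked by replicate number called 5 transporters at 6 h, 2 higher and 3 lower, and of all genes 3.89% rose and 6.69% fell in that fit (10.6% in all). Between 6 h and 48 h, 5 rose and 9 fell, where 19.6% of all genes rose and 19.7% fell (39.3% in all). With the block 6 rose and 10 fell, where 25.1% of all genes rose and 24.8% fell. SLC1A5 was among those gained (-0.74, adjusted p = 0.0173), and edgeR (adjusted p = 0.0434) and DESeq2 (adjusted p = 0.0151) called it lower at 48 h than at 6 h too. SLC7A1 (-1.97 ± 0.25 SE, adjusted p = 0.00019), SLC38A1 (-1.29 ± 0.23 SE, adjusted p = 0.0014) and SLC6A17 (-2.27 ± 0.45 SE, adjusted p = 0.00272) had the lowest adjusted p of those lower at 48 h than at 6 h. SLC6A17, a vesicular carrier of neutral amino acids, was at 1.65, 2.07 and 6.63 at 48 h against 13.8, 17.7 and 23.98 at 6 h. SLC7A7 (2.18 ± 0.25 SE), SLC6A6 (0.97 ± 0.19 SE) and SLC6A8 (0.79 ± 0.18 SE) were higher at 48 h than at 6 h. The 6 h library of replicate 3 was high for several genes, including SLC7A5, SLC7A11 and SLC1A5. Without it, the SLC7A11 difference between 48 h and 6 h was -0.78 (adjusted p = 0.0749) in place of -1.46 (adjusted p = 0.0366; also lost without 48 h replicate 1 or 2, adjusted p = 0.0746 and 0.129, and with the 2 groups alone, adjusted p = 0.0569). The SLC7A5 difference was -1.02 (adjusted p = 0.0279) in place of -1.54 (adjusted p = 0.0134).

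A375 tumours under vemurafenib had some changes that were not called in A375 cultures, which does not show that they were absent there. SLC38A3, a sodium-coupled glutamine carrier, had 251, 176, 184 and 246 under vemurafenib and 20.8, 28.2, 22.4 and 23.3 under vehicle (log2 change 3.12 ± 0.16 SE, adjusted p = 5.7e-11). Every treated tumour was far above every vehicle tumour, whereas A375 cultures had 26.5, 20.7 and 26.5 at 48 h and 14.7, 29.3 and 18.8 under vehicle (log2 change 0.27 ± 0.31 SE, adjusted p = 0.492). SLC6A9, the glycine transporter GLYT1, had 171, 229, 184 and 203 under vemurafenib and 96.2, 82.99, 95.2 and 80.1 under vehicle (log2 change 1.14 ± 0.13 SE, adjusted p = 5.5e-07) in the tumours. SLC38A9, the lysosomal arginine sensor upstream of mTORC1, had 222, 282, 259.8 and 221 under vemurafenib and 141, 147, 154 and 139.7 under vehicle (log2 change 0.75 ± 0.11 SE, adjusted p = 1.3e-05). Of the 29 transporters tested in both settings, 4 rose in culture at 48 h and in tumours (SLC1A4, SLC3A1, SLC6A8 and SLC7A7) and 6 fell in culture and in tumours (SLC36A4, SLC38A1, SLC43A3, SLC6A15, SLC7A1 and SLC7A6). Of all 13350 genes tested in both settings, 16.3% rose in both and 17.8% fell in both. Among these transporters, the culture call of SLC3A1 was lost without vehicle replicate 1 or 3 or 48 h replicate 2 or 3 (adjusted p from 0.0608 to 0.0716) and its tumour call without vemurafenib replicate 1 (adjusted p = 0.0594). The culture call of SLC7A6 was lost without vehicle replicate 1 or 48 h replicate 2 (adjusted p = 0.0662 and 0.0656) or with quantile normalisation (adjusted p = 0.0546). Calls in opposite directions were made for 3 of the transporters; of all genes, 2.29% rose in culture and fell in tumours and 2.23% did the reverse. SLC7A8 rose in culture and fell in tumours, with 24.2, 14.2, 15.7 and 23.2 under vemurafenib and 35.3, 40.7, 63.1 and 56.8 under vehicle (log2 change -1.29 ± 0.25 SE, adjusted p = 0.000183). SLC6A6 also rose in culture and fell in tumours (log2 change -0.60 ± 0.07 SE, adjusted p = 1.2e-06). SLC1A1 fell in culture and rose in tumours (log2 change 0.34 ± 0.13 SE, adjusted p = 0.0272), the last call being lost without vehicle replicate 1, 2 or 3 or vemurafenib replicate 3 (adjusted p from 0.0554 to 0.0952). Culture and tumour tables were normalised separately and differ in RNA type, time and dose, so the difference between them was not tested.

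**Figure D5:**
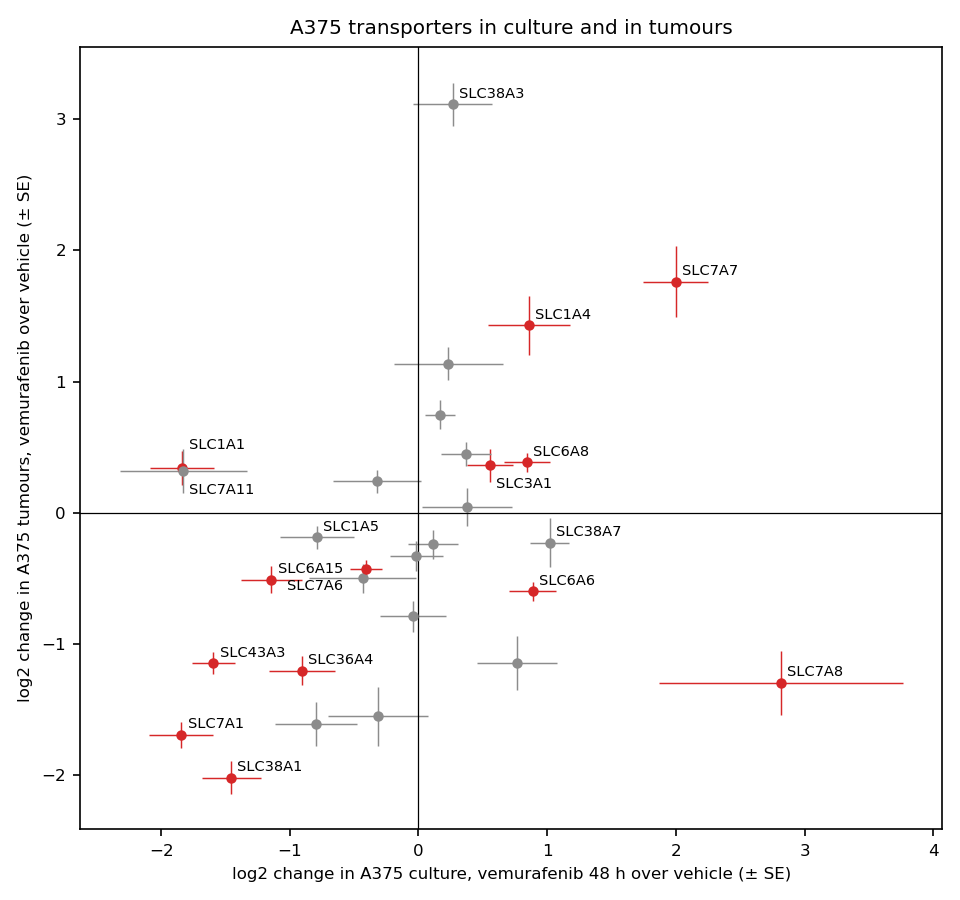
Log2 change under vemurafenib in A375 cultures at 48 h (x axis) and in A375 tumours (y axis) for the 29 transporters tested in both, with SE bars; red points were called in both. SLC7A8, SLC6A6 and SLC1A1 lie in the quadrants of opposite sign, and SLC38A3 lies highest, near 0 on the culture axis.

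In A375R tumours limma called few transporters under the drug. In Ronly tumours SLC7A5 had 13682, 14578 and 15699.7 under vemurafenib and 8756, 13527 and 10004 under vehicle, which did not overlap but did not pass the threshold (log2 change 0.47 ± 0.15 SE, adjusted p = 0.12). SLC1A5 had 4633, 4493 and 4527 under vemurafenib and 3549.9, 3801 and 3105 under vehicle (log2 change 0.39 ± 0.11 SE, adjusted p = 0.0859). It was called there by DESeq2 (adjusted p = 0.0218), when blocked by replicate number (adjusted p = 0.0467) and with the Ronly groups alone (adjusted p = 0.043). SLC7A1 had 2671, 3149 and 3404 under vemurafenib and 2304, 2858 and 2542 under vehicle (log2 change 0.26 ± 0.11 SE, adjusted p = 0.224). SLC3A2 had 4389, 4748 and 4920.4 under vemurafenib and 4737, 4542 and 4074 under vehicle (log2 change 0.07 ± 0.12 SE, adjusted p = 0.782). For SLC38A2 the values were 3777, 5250.3 and 6080.2 under vemurafenib and 5369, 6070.4 and 5461 under vehicle (log2 change -0.19 ± 0.15 SE, adjusted p = 0.543). In SR tumours SLC6A9 had 338, 346 and 338 under vemurafenib and 188, 169.6 and 208 under vehicle (log2 change 0.86 ± 0.17 SE, adjusted p = 0.0121). SLC1A4 had 271, 408 and 246 under vemurafenib and 136, 189.9 and 125 under vehicle (log2 change 1.02 ± 0.24 SE, adjusted p = 0.0277). SLC7A11 had 82.8, 86.3 and 78.7 under vemurafenib and 274, 176 and 128 under vehicle (log2 change -1.14 ± 0.22 SE, adjusted p = 0.00937), with the vehicle tumours widely spread. All 3 calls were lost without SR vehicle replicate 1 (SLC6A9 0.86, adjusted p = 0.0565; SLC1A4 0.96, adjusted p = 0.118; SLC7A11 -0.85, adjusted p = 0.0558), and that of SLC1A4 also without SR vehicle replicate 3 or SR vemurafenib replicate 2 (adjusted p = 0.0662 and 0.117). SLC7A5 had 13430.0, 16806 and 14158 under vemurafenib and 13708, 12378 and 10024 under vehicle (log2 change 0.30 ± 0.15 SE, adjusted p = 0.275). SLC1A5 had 4834, 4959 and 4402 under vemurafenib and 3771, 3967 and 3066 under vehicle (log2 change 0.40 ± 0.11 SE, adjusted p = 0.0518), which was called by DESeq2 (adjusted p = 0.015), when blocked by replicate number (adjusted p = 0.0318) and without SR vehicle replicate 2 (0.47, adjusted p = 0.0347). None of SLC3A2, SLC7A1 and SLC38A2 was called. SLC3A2 had 4644, 6512 and 4847 under vemurafenib and 4099, 4431 and 3797 under vehicle (log2 change 0.36 ± 0.12 SE, adjusted p = 0.105). SLC7A1 had 3031, 2914 and 2978 under vemurafenib and 2690.0, 2795 and 2344 under vehicle (log2 change 0.19 ± 0.11 SE, adjusted p = 0.35). Of SLC38A2 there were 5060.5, 6100.1 and 6188 under vemurafenib and 5202, 6431 and 4985 under vehicle (log2 change 0.07 ± 0.15 SE, adjusted p = 0.862).

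Between the kinds of A375R tumour, SLC7A11 was the transporter called by the test of the difference in drug response (SR minus Ronly -1.56 ± 0.31 SE, adjusted p = 0.0214; 2.89% of all genes were called, 1.91% higher and 0.974% lower). Ronly tumours had 92.7, 79.4 and 93.3 under vemurafenib and 64.9, 71.4 and 60.8 under vehicle (log2 change 0.42 ± 0.22 SE, adjusted p = 0.321). That test was lost without Ronly vehicle replicate 1 or 3, SR vehicle replicate 1, Ronly vemurafenib replicate 2 or SR vemurafenib replicate 3 (adjusted p from 0.0507 to 0.0691, differences from -1.64 to -1.27). Under vehicle, SLC7A11 was higher in SR tumours, with 274, 176 and 128 in SR and 64.9, 71.4 and 60.8 in Ronly (log2 change 1.47 ± 0.22 SE, adjusted p = 0.00138). SLC6A8 was lower in SR tumours, with 4048, 3425 and 3588 in SR and 5619, 4998 and 5847 in Ronly (log2 change -0.57 ± 0.13 SE, adjusted p = 0.0234). Of all genes, 1.93% were called higher and 1.37% lower (3.3% in all). The SLC6A8 call was lost without Ronly vehicle replicate 1 or 3 or SR vehicle replicate 2 or 3 (adjusted p from 0.0522 to 0.127) or with quantile normalisation (adjusted p = 0.0752). Under vemurafenib no transporter was called between SR and Ronly by limma, where 0.211% of all genes were called higher and 0.0291% lower (0.24% in all). Both edgeR and DESeq2 called 0 transporters there, where 0.0945% and 1.13% of all genes were called. SOX10, a melanocyte lineage gene low in Ronly tumours, had 91.7, 254 and 59.5 in SR tumours under vemurafenib and 1021, 508 and 837 under vehicle. MITF, of the same lineage, went the other way, with 513, 449 and 479 in SR tumours under vemurafenib and 351, 399 and 368 under vehicle. S100B, another gene of that lineage, had 38.1, 37.97 and 39.3 in SR tumours under vemurafenib and 111, 104 and 128 in SR tumours under vehicle. The summed level of the 8 melanocyte markers was 612 to 758 in SR tumours under vemurafenib, and 1030 to 1502 in SR tumours under vehicle. It was 407 to 747 in Ronly tumours under vemurafenib and 434 to 771 in Ronly tumours under vehicle, with TYR and DCT at or near 0 throughout. Their part in the SLC7A11 result was not tested.

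The other transporters were more restricted. SLC6A14, a broad carrier of neutral and cationic amino acids, passed the minimum in H3122 alone and fell there, with 7.05 and 6.15 under crizotinib and 46.2 and 28.4 under vehicle (log2 change -2.29 ± 0.36 SE, adjusted p = 0.000299). SLC6A17 fell in Colo800 (log2 change -2.60 ± 0.35 SE, adjusted p = 2.6e-06) and in A375 cultures at 48 h (-1.80 ± 0.45 SE). SLC6A13, a GABA transporter, rose in UACC62 (log2 change 1.04 ± 0.25 SE, adjusted p = 0.00769), the table in which it was tested. SLC7A2, a cationic carrier, fell in Colo800 (-1.21 ± 0.34 SE), UACC62 (-1.14 ± 0.16 SE) and A375 tumours (-1.61 ± 0.17 SE). SLC43A2, the LAT4 uniporter of neutral amino acids, rose in Colo800 (0.57 ± 0.09 SE) and fell in UACC62 (-1.15 ± 0.16 SE) and A375 tumours (-1.14 ± 0.20 SE), while SLC1A3, the EAAT1 glutamate carrier, fell in UACC62 (-0.83 ± 0.20 SE) and A375 tumours (-1.55 ± 0.23 SE). H3122 had 1 transporter that rose, SLC1A1, with 799.5 and 775 under crizotinib and 625 and 538 under vehicle (log2 change 0.44 ± 0.10 SE, adjusted p = 0.00376). The 23 symbols under the minimum in every table include SLC7A9, SLC7A10, SLC7A3, SLC1A2 and SLC6A19, and nothing is said of their change.

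Other genes of amino acid supply were read from lists of pathway genes, whose counts stand beside the shares of all genes called and were not tested against them. Those shares were 24.3% higher and 25.6% lower in A375 cultures at 48 h, 36% and 37.3% in Colo800, 26.9% and 29.6% in UACC62, 22.1% and 24% in H3122, and 34.2% and 34% in A375 tumours. Of the amino acid response genes, which ATF4 controls when amino acids are scarce, 12 of 16 fell and none rose in H3122 (median log2 change -0.66). Among them were CHAC1, which degrades glutathione (-2.75 ± 0.14 SE), TRIB3 (-1.53 ± 0.10 SE), the asparagine synthetase ASNS (-1.03 ± 0.09 SE) and DDIT3 (-0.68 ± 0.12 SE). ATF4 itself had a log2 change of -0.19 ± 0.10 SE (adjusted p = 0.137). In A375 tumours 10 of 19 rose and 5 fell (median 0.42), with ATF4 at 0.75 ± 0.08 SE and TRIB3 at -0.81 ± 0.08 SE. A375 cultures at 48 h had 4 higher and 6 lower of 18, Colo800 6 and 8 of 18, and UACC62 7 and 5 of 17; ATF3 rose in each (from 2.25 ± 0.06 SE to 3.21 ± 0.12 SE). EIF4EBP1, which restrains translation when mTORC1 is low, fell in these 3 lines (-1.80 ± 0.16 SE in A375).

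Of the cytosolic tRNA synthetases, which charge tRNA with amino acids, 1 rose and 12 fell of 20 in A375 cultures at 48 h, 3 rose and 15 fell of 20 in Colo800 and 0 rose and 16 fell of 20 in UACC62. For the same synthetase genes, 1 rose and 17 fell of 20 in H3122 and 4 rose and 9 fell of 20 in A375 tumours. Of all genes, 25.6% fell in A375 cultures at 48 h, 37.3% in Colo800, 29.6% in UACC62, 24% in H3122 and 34% in A375 tumours. VARS, which charges tRNA with valine, fell in all 5 (from -1.44 ± 0.09 SE in UACC62 to -0.62 ± 0.08 SE in A375 tumours). Of the serine, glycine and one-carbon enzymes, 1 rose and 5 fell of 12 in A375 cultures at 48 h, 2 rose and 9 fell of 12 in Colo800 and 1 rose and 9 fell of 12 in UACC62. Among these enzymes, 1 rose and 7 fell of 11 in H3122 and 1 rose and 7 fell of 12 in A375 tumours. MTHFD2, the mitochondrial folate enzyme, fell in all 5, from -1.86 ± 0.30 SE in A375 cultures to -0.86 ± 0.05 SE in Colo800. PHGDH, the enzyme at the start of serine synthesis, fell in the 4 cultured lines (-1.17 ± 0.11 SE in UACC62) and was not called in A375 tumours (0.06 ± 0.10 SE, adjusted p = 0.612), while PSAT1, of the same pathway, rose in Colo800 (0.82 ± 0.04 SE) and fell in H3122 (-1.01 ± 0.08 SE). BCAT1, which transfers the amino group of branched-chain amino acids, fell in all 5, with log2 changes from -3.16 ± 0.24 SE in UACC62 to -1.13 ± 0.10 SE in H3122. In the list of branched-chain amino acid breakdown to which it belongs, 5 rose and 3 fell of 11 in A375 cultures at 48 h, 7 rose and 2 fell of 11 in Colo800 and 2 rose and 4 fell of 11 in UACC62. Of this list, 4 rose and 4 fell of 11 in H3122 and 4 rose and 2 fell of 11 in A375 tumours.

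Of the genes that sense amino acids at the lysosome for mTORC1, 11 rose and 2 fell of 31 in A375 cultures at 48 h, 20 rose and 5 fell of 31 in Colo800 and 12 rose and 5 fell of 31 in UACC62. By the same count, 5 rose and 6 fell of 31 in H3122 and 12 rose and 7 fell of 31 in A375 tumours. Of all genes, 24.3% rose in A375 cultures at 48 h, 36% in Colo800, 26.9% in UACC62, 22.1% in H3122 and 34.2% in A375 tumours, and the shares that fell are those given for the tRNA synthetases. RRAGB, a GTPase that recruits mTORC1 to lysosomes, rose by 1.29 ± 0.21 SE in A375 and 1.31 ± 0.14 SE in UACC62, and SEH1L, of the GATOR2 complex and of the nuclear pore, fell in all 5 (from -1.31 ± 0.13 SE in A375 cultures to -0.49 ± 0.09 SE in H3122). Of other amino acid carriers, 6 rose and 1 fell of 15 in A375 cultures at 48 h, 5 rose and 6 fell of 14 in Colo800 and 8 rose and 3 fell of 15 in UACC62. Among such carriers, 4 rose and 2 fell of 15 in H3122 and 7 rose and 3 fell of 13 in A375 tumours. CTNS, the lysosomal cystine exporter, rose in A375 cultures (0.92 ± 0.18 SE), Colo800 (1.80 ± 0.05 SE), UACC62 (1.98 ± 0.11 SE) and A375 tumours (0.78 ± 0.10 SE). Of the glutathione and NRF2 genes, 1 rose and 3 fell of 16 in A375 cultures at 48 h, 3 rose and 10 fell of 16 in Colo800 and 9 rose and 3 fell of 16 in UACC62. Elsewhere, 2 rose and 9 fell of 16 in H3122 and 2 rose and 10 fell of 16 in A375 tumours. HMOX1 rose in Colo800 (1.46 ± 0.07 SE) and UACC62 (3.02 ± 0.10 SE), and GCLM, the modifier subunit of the enzyme that starts glutathione synthesis, fell in A375 tumours (-1.72 ± 0.14 SE). Of the glutamine, glutamate and proline enzymes, 1 rose and 5 fell of 17 in A375 cultures at 48 h, 2 rose and 12 fell of 16 in Colo800 and 0 rose and 12 fell of 17 in UACC62. Within that list, 1 rose and 10 fell of 18 in H3122 and 5 rose and 10 fell of 17 in A375 tumours. Of the arginine and polyamine enzymes, 2 rose and 3 fell of 9 in A375 cultures at 48 h, 1 rose and 6 fell of 9 in Colo800 and 2 rose and 5 fell of 9 in UACC62. Likewise, 1 rose and 8 fell of 11 in H3122 and 1 rose and 5 fell of 10 in A375 tumours. ASS1, which makes the precursor of arginine, fell in A375 tumours (-4.00 ± 0.16 SE). ODC1, the enzyme at the start of polyamine synthesis, fell in A375 cultures (-1.61 ± 0.22 SE), UACC62 (-1.12 ± 0.10 SE), H3122 (-1.20 ± 0.08 SE) and A375 tumours (-0.94 ± 0.08 SE). In A375R Ronly tumours each of these lists had at most 2 genes called, where 0.792% of all genes were. Even 1 call in a list of 11 to 32 genes is a larger share than that, and no list was tested against it.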

How the data were processed

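RNA was sequenced in 41 libraries of 15 groups, in 6 tables that were normalised separately. The deposited values, of the kind called signal here, are read counts that the authors divided by a size factor for each library; no label or header gives the formula. The submitters' processing notes name the builds hg19 and mm9 and the tools DESeq 1.18.0, HTSeq 0.5.4 and STAR 2.3.0e, with no role stated. The library kit does not mark strand, so overlapping and antisense genes cannot be told apart. Library totals ran from 8063754 to 42843612 reads.

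Tests used limma 3.58.1 (R 4.3.3) with a mean-dependent prior on log2(value + 1), over genes with a mean of at least 10 in the table, with all groups of a table in the fit, two-sided, with Benjamini-Hochberg adjustment over all genes tested and a threshold of 0.05. Fold changes on this scale understate the change of low genes. Comparisons were made within a table only. The alternatives were pseudocounts of 0.5 and 5, no filter or a mean of at least 50, quantile normalisation, the groups compared alone, the replicate number as a block, and leaving out each library.

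Whole reads could be recovered from the values: with a tolerance of 0.1, 100% of values came out whole, with a largest deviation of 8e-04. The recovery could not be checked for 4 libraries whose size factor is close to 1, so edgeR 4.0.16 and DESeq2 1.42.0 were run as alternatives on the 2 tables without such a library, A375 cultures and A375R tumours. In A375 cultures at 48 h against vehicle, edgeR called 3475 genes higher and 3421 lower, and DESeq2 3539 and 3617, against 3361 and 3542 by limma.

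The titles give replicate numbers. Deviations from the group means correlated between same-numbered A375 cultures (0.567, 0.31 and 0.566 between vehicle and 6 h; 0.436, 0.197 and 0.41 between the drug times), so by this measure the number pairs the 6 h libraries with either other group. Between vehicle and 48 h they correlated at 0.402, 0.028 and 0.32, 1 of them under the minimum of 0.1, and the other tables were not paired by this measure. The transporters and gene lists were chosen with earlier results of these data known, so their counts are descriptions. Values in every library are given for up to 3 transporters per direction and comparison with the smallest adjusted p, and for SLC7A5, SLC3A2, SLC7A11, SLC1A5, SLC38A2 and SLC7A1; other transporters and up to 3 list genes per direction are given by their change. Start windows are from RefSeq, GRCh38.p14. The fit was also run on simulated reads with a single spread for all genes and groups, unlike these libraries. Its pass mark was lowered after the result was seen, so that run does not show how the fit performs on these data.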

Additional observations from a re-analysis of the deposited data

Results flagged for a closer look

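Among groups of 4 libraries, 2 of 60 had a library far from the others, where chance gives about 1 in 20. Both concern vehicle A375 tumour replicate 3: SLC1A5 was lowest there at 1210.74, with the others from 1407.71 to 1444.73, and SLC38A6 was highest at 87.0267, with the others from 67.3319 to 68.4088.

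The drug response of SLC7A11 differed between the kinds of A375R tumour by the test of the difference (SR minus Ronly -1.563). In vemurafenib A375 cultures, levels at 48 h differed from those at 6 h by limma, with no vehicle group for each time. Lower at 48 h were SLC36A4 (-0.741), SLC38A1 (-1.288), SLC3A2 (-1.231), SLC43A3 (-0.806), SLC6A17 (-2.266), SLC7A1 (-1.968), SLC7A11 (-1.463), SLC7A5 (-1.54) and SLC7A6 (-0.449). Higher at 48 h were SLC43A2 (1.358), SLC6A6 (0.966), SLC6A8 (0.788), SLC7A7 (2.181) and SLC7A8 (2.735). Of these, SLC36A4 was lost without 6 h replicate 1 or 3 or 48 h replicate 2 or 3 (adjusted p from 0.0608 to 0.138, limma) or with the 2 groups alone (adjusted p = 0.0632, limma), SLC7A8 without 6 h replicate 1 or 2 or 48 h replicate 2 or 3 (adjusted p from 0.0536 to 0.134, differences from 1.708 to 3.09, limma), SLC3A2 without 48 h replicate 1 (adjusted p = 0.0569, limma) and SLC7A6 without 48 h replicate 2 (adjusted p = 0.0563, limma).

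Some transporters had every drug library on one side of every vehicle library in one setting and on the other side in another; these differences between settings were not tested. Between Colo800 and UACC62 cultures they were SLC36A1 (log2 change -0.283 in Colo800 and 0.287 in UACC62), SLC43A2 (0.572 and -1.154), SLC7A6 (0.133 and -0.359) and SLC7A7 (-0.417 and 1.319). The Colo800 call of SLC7A6 was lost without vehicle replicate 2 (0.064) or vemurafenib replicate 1 (0.148) or 2 (0.118). Its UACC62 call was lost without vehicle replicate 1 (-0.407) or 2 (-0.311), and the Colo800 call of SLC36A1 without vemurafenib replicate 2 (-0.206). Each of these fits leaves 1 library in a group, so no p is given. Between A375 tumours and A375R Ronly tumours they were SLC36A4 (-1.202 in A375 and 0.324 in A375R), SLC6A8 (0.385 and -0.442), SLC7A2 (-1.609 and 0.316) and SLC7A5 (-0.499 and 0.467).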

How the results depend on the processing

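Of 117 transporter results called by limma, 87 kept their call under every alternative in which the gene was tested, 30 lost it under at least 1, and none changed direction. Some genes of low level were not tested under every alternative. The results that changed direction were uncalled and near 0, and the cause was not tested. With quantile normalisation, SLC1A5 was 0.051 and SLC38A2 0.063 in A375 cultures at 6 h, SLC38A2 0.195 at 48 h, SLC7A5 0.074 in UACC62 and SLC38A2 -0.027 in A375R SR tumours; SLC1A5 at 6 h was 0.084 by edgeR and 0.074 by DESeq2. Leaving out 1 library moved SLC1A5 at 6 h between -0.474 and 0.168, SLC7A1 at 6 h between -0.174 and 0.403, SLC38A2 at 48 h against 6 h between -0.036 and 0.311, at 48 h between -0.111 and 0.151, at 6 h between -0.327 and 0.07, in Ronly tumours between -0.337 and 0.006, in SR tumours between -0.006 and 0.177, and SLC7A5 in Colo800 between -0.013 and 0.018.

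The number of transporters called moved by more than 1.5 times in the following cases. With the replicate number as a block, 5 were called at 6 h in A375 cultures (2 higher), 2 in A375R Ronly tumours (2 higher) and 2 in the SR and Ronly difference in response (1 higher); of all genes 10.6%, 2.17% and 3.85% were called in these fits, and the numbers pair only the 6 h A375 libraries with the other A375 cultures. The H3122 numbers correlated at -0.209, and with the numbers crossed, a pairing chosen after seeing the data, 16 were called (4 higher), with 61.1% of all genes. With quantile normalisation 1 fell at 6 h, 2 rose in H3122, 1 was called in Ronly tumours (1 higher), and 1 was called between SR and Ronly under vehicle (0 lower). Of all genes in these fits, 2.79% fell at 6 h and 22.1% rose in H3122. In Ronly tumours 1.07% of all genes were called, and 2.78% between SR and Ronly under vehicle. With the groups compared alone, 0 rose at 6 h (0.499% of all genes), and 3 were called in Ronly tumours (2 higher and 1 lower, with 3.58% of all genes). In Ronly tumours 1 was called with a pseudocount of 0.5 (1 higher) and 1 with a mean of at least 50 (1 higher), with 0.814% and 1.23% of all genes. DESeq2 called 3 there (2 higher, 1 lower) and 2 in the difference in response (1 higher), with 6.15% and 6.45% of all genes. Leaving out each library in turn gave, as lowest and highest counts, A375 cultures at 6 h 0 to 2 higher, 1 to 3 changed, 1 to 2 lower; A375 cultures at 48 h 4 to 7 higher, 11 to 16 changed; H3122 1 to 3 higher. It gave SR against Ronly under vehicle 1 to 2 changed, 0 to 1 lower, 1 to 2 higher; the SR and Ronly difference in response 0 to 2 changed, 0 to 2 lower, 0 to 1 higher; Ronly tumours 0 to 1 changed, 0 to 1 higher; SR tumours 0 to 4 changed, 0 to 3 higher, 0 to 1 lower.

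Between SR and Ronly under vemurafenib, 87.9% of the genes called by limma were higher, 76.9% by edgeR and 73% by DESeq2. edgeR and DESeq2 were not run on the Colo800, UACC62, H3122 and A375 tumour tables. With 2 libraries per group in 3 lines, leaving out 1 leaves a lone library that is assumed to vary like the other group. In all 4 such fits of UACC62, 2 of 4 of H3122 and the block fits of both lines (the crossed one too), limma estimated infinite prior degrees of freedom: the p-values there use the spread common to genes of like level, set a gene's own spread aside, and carry little weight for calls kept, gained or lost.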
